A study of Mus musculus with 8 samples.

Results

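Of the 29586 m6A peaks listed for control primary mouse T cells, 2602 (8.79%) lay in genes for which the list gave an Ensembl identifier and no gene symbol. In the list of cells treated with PTC they numbered 2221 of 23368 (9.50%). They were chosen by that single rule, a "--" in the name column. The rule uses no measured value, though it was set with earlier results of these data known. They belonged to 1814 of 11390 genes in the control list (15.9%) and to 1623 of 10859 genes in the PTC list (14.9%), which makes 2162 genes in all. About 3 in 10 of these peaks had a near-identical copy in the transcript of a protein-coding gene at another locus, and nearly 2 in 10 lay on a listed peak of a named gene on the other strand.

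The study compared control T cells with T cells exposed to PTC, an agent that the labels name without describing it, for 24 h. The cells came from mouse (Mus musculus), grew in serum-supplemented medium and carried no stated genetic change. Strain, age and sex of the animals, and whether samples came from separate animals or cultures, are not given. In each condition 2 samples were immunoprecipitated for m6A and 2 were input, so the 8 samples formed 4 groups of 2. Each condition was deposited as 1 peak list without values per sample, so no difference between conditions has a replicate check and no test was possible.

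N6-methyladenosine (m6A) is a methyl mark on adenosines of RNA, written by a nuclear complex around Mettl3 and Mettl14 mostly at adenosines in a short sequence context called DRACH, of which GGACT is the best-known form. It is found on messenger RNAs and on long noncoding RNAs, and in T cells it is known to affect RNA turnover and differentiation. Processed pseudogenes are reverse-transcribed copies of messenger RNAs that were inserted elsewhere in the genome, lack introns and usually encode no protein. Their sequences resemble those of their source genes, so that a short read can match both. Antisense genes are noncoding genes on the strand opposite to another gene.

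The sequences below show some of the kinds of transcript concerned. They come from peaks picked for holding GGACT, which 27.9% of control and 28.0% of PTC peaks without a symbol held. In genes with a symbol 34.9% and 38.3% of peaks held it. Each runs 5′ to 3′ along the transcript strand, with 50 nt on either side of the A of GGACT, which is in capitals, and comes from GENCODE M21 transcripts in GRCm38 coordinates. Gm13456 (chr2:40556761-40556861, plus strand) is a processed pseudogene of Eef1a1, the gene of the elongation factor that brings aminoacyl-tRNA to the ribosome, and the matching stretch of Eef1a1 (chr9:78479087-78479187, minus strand) is given under it. In the Eef1a1 line the capitals mark the 3 bases that differ from Gm13456, and that stretch holds no GGACT. Malat1 (chr19:5801511-5801611, minus strand) is an abundant nuclear long noncoding RNA. 1810026B05Rik (chr7:73544306-73544406, minus strand) is a processed transcript and was among the genes with the most peaks. AI662270 (chr11:83225574-83225674, plus strand) is a noncoding transcript whose stretch is also part of the pseudogene Gm11427. Gm1966 (chr7:106600291-106600391, minus strand) is an unprocessed pseudogene that carried the widest peak.

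Gm13456: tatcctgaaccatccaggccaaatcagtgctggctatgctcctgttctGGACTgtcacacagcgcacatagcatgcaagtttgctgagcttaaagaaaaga
Eef1a1: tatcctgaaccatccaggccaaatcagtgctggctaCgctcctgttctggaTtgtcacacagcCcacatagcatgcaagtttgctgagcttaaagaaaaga
Malat1: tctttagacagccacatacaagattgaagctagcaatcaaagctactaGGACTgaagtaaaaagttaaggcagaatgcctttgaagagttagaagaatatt
1810026B05Rik: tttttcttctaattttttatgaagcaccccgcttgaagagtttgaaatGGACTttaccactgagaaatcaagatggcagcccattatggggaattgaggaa
AI662270: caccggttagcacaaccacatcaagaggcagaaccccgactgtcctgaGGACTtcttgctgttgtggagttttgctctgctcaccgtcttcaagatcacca
Gm1966: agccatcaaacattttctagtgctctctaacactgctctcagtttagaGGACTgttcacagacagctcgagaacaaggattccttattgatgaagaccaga

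The lack of a symbol went with the kind of gene. GENCODE M21 held 1811 of the 1814 control genes and 1621 of the 1623 PTC genes and gave each of them a name, most often a numbered gene model with the prefix Gm (72.9% and 72.4%) and less often a Riken clone name ending in Rik (246 and 215 genes). A few well-known noncoding genes, such as Malat1 and Kcnq1ot1, were among them. GENCODE classed 0 of them as protein coding, whereas it classed 97.9% of the control genes and 98.3% of the PTC genes with a symbol as protein coding. Of the peaks without a symbol, 99.7% (control) and 99.5% (PTC) lay inside the GENCODE gene of the same identifier.

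Processed pseudogenes were the largest class, with 848 genes and 1102 peaks in the control list and 788 genes and 1001 peaks in the PTC list. Antisense genes followed with 323 genes and 457 peaks against 286 genes and 373 peaks. Long intergenic noncoding RNA (lincRNA) genes held 344 control and 300 PTC peaks in 193 and 176 genes. Other long noncoding RNA genes held 333 and 269 peaks in 186 and 165 genes. The class TEC, models that GENCODE marks as still to be experimentally checked, held 244 and 168 peaks in 185 and 134 genes. Pseudogenes that keep an intron structure or are of other kinds held 107 and 96 peaks, and microRNA or miscellaneous RNA genes 11 in each list. Processed pseudogenes thus made up 42.4% of the control and 45.1% of the PTC peaks without a symbol, and TEC models 9.38% and 7.56%.

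**Figure D1:**
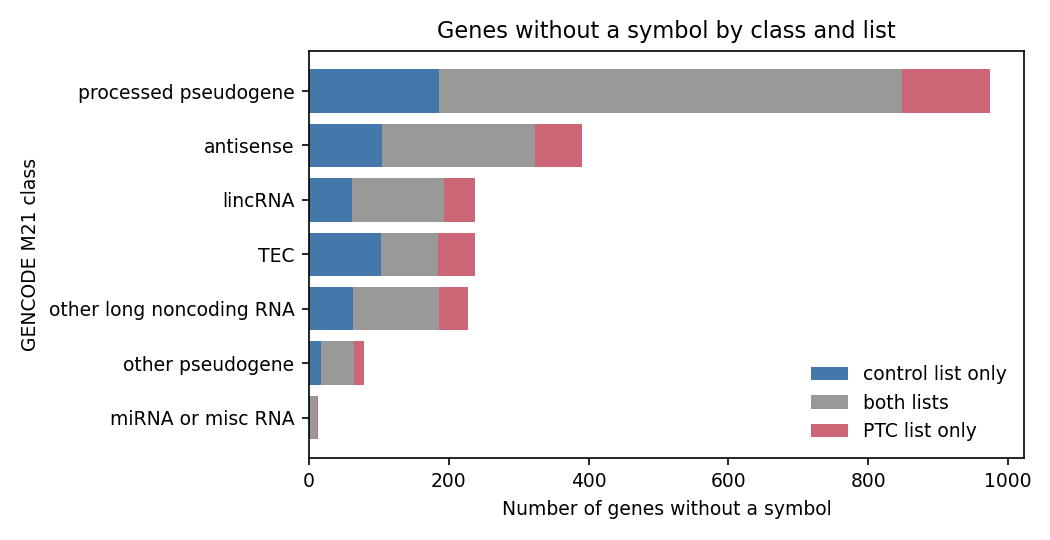
Number of genes without a symbol (x axis) in each GENCODE M21 class (y axis), split into genes with a peak in the control list only (blue), in both lists (grey) and in the PTC list only (red). Of 974 processed pseudogenes, 662 were in both lists, whereas of 237 TEC models 82 were.

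Peaks without a symbol were few per gene. The control list held a mean of 1.43 and the PTC list 1.37 peaks per such gene, against 2.82 and 2.29 in genes with a symbol. A single peak was listed in 74.4% (control) and 75.5% (PTC) of these genes, against 30.1% and 38.5% of genes with a symbol. The peaks counted here include 135 in control and 114 in PTC that shared bases with another listed peak of the same gene without a symbol. The genes themselves were shorter. In the control list the median gene without a symbol had 1320 nt of exon, and the median gene with a symbol had 4655 nt. A peak covered a median of 15.3% (control) and 17.2% (PTC) of the exonic length of a gene without a symbol, against 5.03% and 5.65%. In processed pseudogenes this share was 30.4% and 29.8%.

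Width was taken as the summed length of a peak's exon blocks, the stretches of exon into which the lists divide a peak that crosses introns. The median width was 237 nt in the control list (quartiles 172 and 388) and 239 nt in the PTC list (177 and 374). Genes with a symbol had medians of 270.0 and 271 nt. Peaks of over 1000 nt made up 3.38% (88 peaks) and 3.11% (69 peaks) of those without a symbol, and 8.90% and 8.89% of those with one. At the narrow end, 17.7% of control and 16.3% of PTC peaks without a symbol were under 150 nt, against 10.9% and 10.2%. Widths ran from 108 to 7293 nt in both lists.

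**Figure D2:**
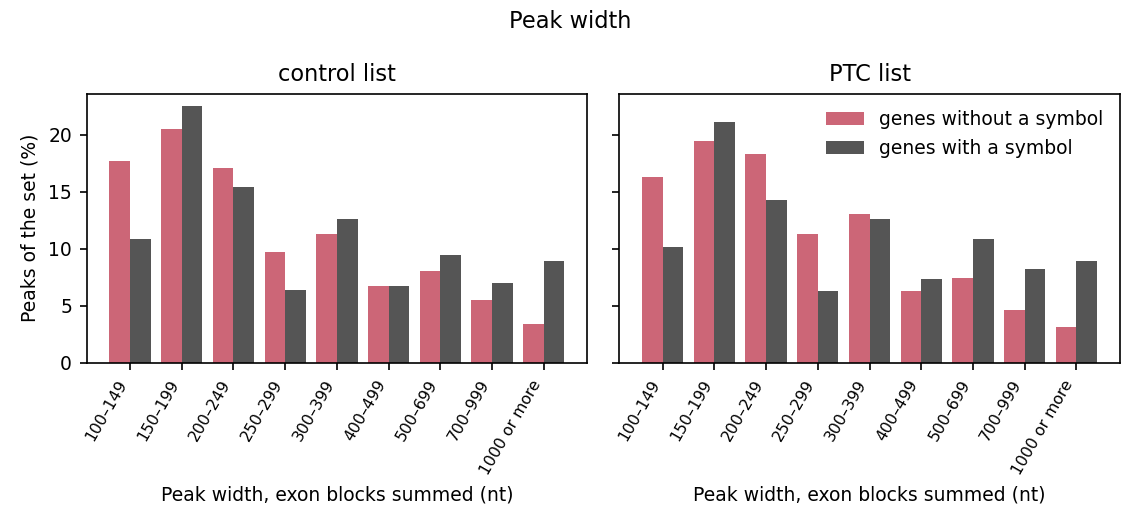
Share of peaks (y axis, percent of the set) by width in nt (x axis, bins of unequal size) in the control list (left) and the PTC list (right), for genes without a symbol (red) and with a symbol (grey). The set without a symbol held more peaks of 100 to 149 nt and fewer of 1000 nt or more in both lists.

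The 3 widest peaks of each list lay in one region of chromosome 7, in pseudogenes next to the Gvin genes, which encode very large interferon-inducible GTPases. Gm1966 carried a peak of 7293 nt at the same coordinates in both lists (chr7:106596743-106604035, minus strand), which covered the whole gene model, with a fold enrichment of 6.42 in control and 7.31 in PTC. Fold enrichment is the authors' own value, read here as immunoprecipitate over input. Gm8995 carried a peak of 3490 nt in both lists with folds of 5.98 and 5.11. A second line of Gm8995, in a second run of lines at the end of each list, gave a peak of 7280 nt that overlaps it and reaches further upstream, with folds of 4.60 and 5.10. Gm4759 carried one of 6622 nt, again the whole model, with folds of 7.12 and 9.27. The 3 models have no intron in the peak, and their sequences were 92.9% (Gm1966) and 87.4% (Gm4759) identical to Gvin1 and 91.9% (Gm8995) identical to Gm4070 in the matched parts. The 7293-nt peak held 11 GGACT, the 6622-nt peak 8 and the 7280-nt peak 6.

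Most peaks without a symbol had 1 exon block. More than 1 block was listed for 285 of 2602 control peaks (11%, exact 95% interval 9.78% to 12.2%) and 229 of 2221 PTC peaks (10.3%, 9.08% to 11.7%). In genes with a symbol the shares were 29.4% and 24.8%. These intervals, like all below, cover counting error only, and since peaks of 1 gene are not independent they are too narrow. There were 229 control and 185 PTC peaks of 2 blocks and 56 and 44 of 3 or more, with a maximum of 6. The number of blocks followed the class: 28.4% and 27.6% of peaks in antisense genes crossed an intron, 14% and 16% in lincRNA genes, and 18.3% and 18.2% in other long noncoding RNA genes, but 2.0% and 1.5% in processed pseudogenes and 0.410% and 0.595% in TEC models. Of the peaks without a symbol, 60.8% (control) and 60.4% (PTC) lay on transcripts of a single exon, against 4.96% and 5.08% of those with a symbol.

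The 3 control peaks with the most blocks were in antisense genes, and the 3 PTC peaks in 1 antisense gene and 2 pseudogenes. A530040E14Rik had a peak of 6 blocks in each list, 923 nt wide in control with a fold of 20.9 and 596 nt wide in PTC with a fold of 8.13. It lay opposite C130026I21Rik, on whose own peak it shared 149 and 178 nt. Gm13563, opposite Sdccag3, had 5 blocks in control and 4 in PTC, with folds of 16.4 and 3.29. Gm17344, opposite Ap1g1, a gene of the AP-1 adaptor complex of the trans-Golgi network, had 5 blocks in control and at most 3 in PTC. The pseudogene Gm11427, which resembles the Slfn3 and Slfn4 genes of the Schlafen family, had a peak of 4 blocks in control and of 5 in PTC, spanning 30610 bp of genome for 1674 nt of exon in PTC. Gm4956 had 2 blocks and a width of 150 nt in control, and 5 blocks and 683 nt in PTC.

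The strength of a peak was read from its false discovery rate (FDR), the authors' own value, as −log10 FDR. The median was 4.89 for control and 5.82 for PTC peaks without a symbol, against 5.54 and 6.76 for those with one, so within each list they were the weaker set by this measure. Their median fold enrichment was the higher one in both lists, 4.16 against 3.61 in control and 3.76 against 3.65 in PTC. Processed pseudogenes had the highest −log10 FDR among the larger classes (medians 8.25 and 8.39) together with the lowest fold (3.36 and 3.01). TEC models had the lowest −log10 FDR (3.06 and 3.45) and folds of 5.68 and 4.72. For 6 control and 15 PTC peaks without a symbol the list gave the logarithm of the FDR as minus infinity.

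The 2 lists were then compared peak by peak, a peak counting as overlapped when at least 1 bp of its exon blocks was shared, on the same strand, with a peak listed for the other condition. Of the control peaks without a symbol, 1546 of 2602 were overlapped by a PTC peak (59.4%, 57.5% to 61.3%), beside 60.2% of all control peaks. Of the PTC peaks without a symbol, 1588 of 2221 were overlapped by a control peak (71.5%, 69.6% to 73.4%), beside 78.8% of all PTC peaks. The control share was therefore close to that of the whole list, and the PTC share below it, with an interval that did not reach it. The control list is the longer one. When the control list was reduced to the 23368 peaks with the lowest FDR, the order turned: 71.1% of control and 64.4% of PTC peaks without a symbol were overlapped, beside 69.2% and 73.1% of all peaks at that length.

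Overlap rose with the strength of the peak. In control, 26.1% of peaks without a symbol with a −log10 FDR below 3 were overlapped, 45.2% of those from 3 to 5, 71.3% of those from 5 to 10 and 93.1% of those of 10 or more. Genes with a symbol gave 26.7%, 40.8%, 65.8% and 93.1% in the same bins, and only in the bin from 5 to 10 did the intervals not meet (67.2% to 75.2% without, 64.5% to 67.0% with a symbol). In PTC, the shares without a symbol were 36.8%, 60.1%, 81.6% and 95.2%, and those with a symbol 46.8%, 66.2%, 86.4% and 98.2%. There the set without a symbol was lower in each of the 4 bins, and the intervals did not meet in any of them, from 32.5% to 41.2% against 45.1% to 48.4% in the weakest bin to 93.4% to 96.7% against 97.9% to 98.5% in the strongest. Within these bins the sets could still differ in strength and width: in the strongest PTC bin the median width was 390.0 nt without and 600.0 nt with a symbol. Among the peaks without a symbol width moved with overlap, the overlapped peaks having a median of 317 nt in control and 292 nt in PTC and the others 178 and 176 nt.

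**Figure D3:**
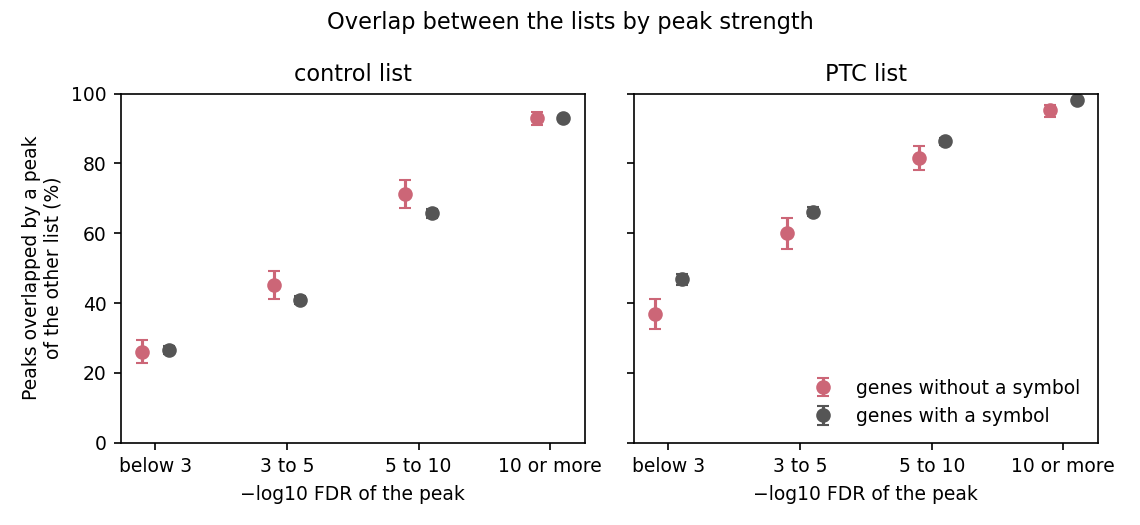
Percent of peaks that had an overlapping partner in the other list (y axis) by −log10 FDR (x axis, 4 bins) for genes without (red) and with a symbol (grey), in the control list (left) and the PTC list (right). Bars are exact 95% intervals for counting error; in the PTC list the red points lie under the grey ones in every bin, from 36.8% against 46.8% to 95.2% against 98.2%.

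Among the 6 larger classes, processed pseudogenes were overlapped most (69.4% of control and 79.7% of PTC peaks) and TEC models least (34% and 50%). Antisense genes gave 53.6% and 68.1%, lincRNA genes 58.1% and 67.7%, and other long noncoding RNA genes 52.3% and 64.7%. The partner lay in the same gene for 99.7% of the overlapped control peaks and 99.6% of the overlapped PTC peaks. Exon blocks were identical to the base for 180 peaks of each list. Of a control peak a median of 85.9% was shared with its partner, and the median PTC peak was shared in full.

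At the level of genes, 1275 of the 2162 genes without a symbol (59.0%) had a peak in both lists, beside 79.2% of all 12413 genes listed. The control list only held 539 (24.9%, beside 12.5% of all genes), and the PTC list only 348 (16.1%, beside 8.24%). Genes with a symbol had 83.5% in both lists. Genes without a symbol had fewer peaks each, and the part of this in their presence in 1 list only was not tested. Of the genes in 1 list only, 89 of 539 in control (16.5%, beside 20.9% of all such genes) and 83 of 348 in PTC (23.9%, beside 20.4%) had a peak with a −log10 FDR of 5 or more. In bulk samples like these, a missing peak can mean less methylation or less RNA, and fewer cells of a type and less RNA per cell cannot be told apart. With the lists at equal length the counts became 275 in control only (14.5%, beside 7.53% of all genes) and 473 in PTC only (24.9%, beside 13.6%), so the order of these counts depends on the list lengths.

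The 1275 shared genes held 1994 control and 1840 PTC peaks. The number of peaks was equal in 910 of them, higher in control in 229 and higher in PTC in 136. In 1199 shared genes at least 1 pair of peaks overlapped, and in 76 (5.96%) none did, a share close to the 5.30% of all shared genes. The share in both lists was 68.0% for processed pseudogenes, 61.5% for other pseudogenes, 55.8% for antisense genes, 55.0% for lincRNA genes, 53.9% for other long noncoding RNA genes and 34.6% for TEC models. TEC models were the class in which the genes in control only (103, 43.5%) outnumbered those in both lists (82).

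The 8 strongest genes in both lists were 3 processed pseudogenes, the unprocessed pseudogenes Gm8995 and Gm11427, the long noncoding RNA genes Malat1 and AI662270, and 1 TEC model. Gm13456, the Eef1a1 copy shown above, had 1 peak in each list, 1128 nt wide in control with a fold of 52.1 and 1068 nt wide in PTC with a fold of 40.3, and the logarithm of its FDR was minus infinity in both lists. The peak was 98.6% (control) and 98.5% (PTC) identical to Eef1a1, which had a listed peak of its own at the matching place. Malat1 had 5 control and 3 PTC peaks, all of them listed in the second run of lines. Its widest peak lay at the same coordinates in both lists (chr19:5800664-5802672, 2009 nt), with folds of 3.34 and 3.83, held 4 GGACT and includes the stretch printed above. The 2 control peaks of Malat1 without a PTC partner had folds of 1.22 each. Gm37376, a TEC model on the strand opposite to Malat1 inside that 2009-nt peak, was covered along its whole 453 nt in both lists, with folds of 2.15 and 2.36.

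Gm15500, identical over the peak to Rpl5, a gene of the large ribosomal subunit, had 2 overlapping peaks in each list. Of these, 1 in each list came from the second run of lines, and the folds ran from 3.38 to 4.28. Gm12715, a copy of Actg1, the cytoplasmic gamma-actin gene, had 1 control peak of 980 nt with a fold of 18.7. In PTC the same stretch held 2 peaks, of 683 nt with a fold of 2.89 and of 209 nt with a fold of 16.3. AI662270 and Gm11427 shared exons on the same strand, and the stretch printed for AI662270 was inside the strongest control peak of each. Reads there cannot be assigned to 1 of the 2 genes from these lists.

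The genes with the most peaks showed how differently repeated peaks can match. Kcnq1ot1, the noncoding antisense transcript that silences neighbouring imprinted genes from inside Kcnq1, had 9 peaks in each list, yet a single pair overlapped. That pair was its strongest peak in both lists (chr7:143258401-143259301 in control, fold 17.2, −log10 FDR 15.9, and chr7:143258101-143259421 in PTC, fold 5.27, −log10 FDR 17.1). The other 8 control peaks had −log10 FDR values from 1.82 to 3.73 and the other 8 PTC peaks from 1.96 to 4.69. 1810026B05Rik had 9 control and 6 PTC peaks, and each PTC peak had a control partner. Its strongest peak held the printed stretch, with folds of 2.78 in control and 3.57 in PTC. The lincRNA gene Gm37233 had 8 peaks in each list, of which 6 control and 7 PTC peaks had a partner. Gm42047, another lincRNA gene, had 6 control peaks, each with a partner, and 7 PTC peaks, of which 1 had none.

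The strongest genes in control only were 3 antisense genes, 1 gene classed as overlapping another in sense and 2 processed pseudogenes. Gm47766 had a −log10 FDR of 36.8 and a fold of 37.4, the highest of the 6 in both values. It lay opposite Actn1, an alpha-actinin gene, on a peak of that gene with a fold of 103 and a −log10 FDR of 39.5, with which it shared 314 of its 324 nt. That Actn1 peak had no PTC partner either. Cdk19os (fold 16.1, −log10 FDR 19.9) lay on a peak of Cdk19, a kinase gene of the Mediator complex, with a fold of 12.7 and a −log10 FDR of 18.9, which also had no PTC partner. Gm11973 lay on a Purb peak and Gm17108 on a peak of Nsun2, an RNA cytosine methyltransferase gene, and both of those peaks did have a PTC partner. The pseudogenes were Glud-ps, a Glud1 copy (fold 1.75), and Gm13414, identical over the peak to Dnajb6 (fold 5.45).

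All 6 of the strongest genes in PTC only were processed pseudogenes of ribosomal protein genes. They were Rpl10a-ps1 (−log10 FDR 98.9), Rps25-ps1 (60.9), Gm12918, a copy of Rpl13 (41.8), Rps26-ps1 (38.6), Gm8730, a copy of Rplp0 (25.1), and Rpl7-ps7 (23.6). Their folds were low, from 1.25 to 1.72 for the strongest peak of 5 of them and 4.20 for Rps25-ps1. Rpl10a, Rps25, Rps26 and Rplp0 themselves had no listed PTC peak, and Rpl7 had one elsewhere. A count of processed pseudogenes that were near-identical copies of ribosomal protein genes was chosen after these values were seen, so it is a description only. Of the genes in this count 6 were already named: Gm15500, in both lists, and the 5 in PTC only above other than Gm12918. Leaving these 6 out, it held 43 genes, of which 27 were in both lists, 12 in PTC only (27.9%) and 4 in control only (9.30%). Of the 622 processed pseudogenes that were near-identical copies of other genes, 460 were in both lists, 55 in PTC only (8.84%) and 107 in control only (17.2%). Of the 303 processed pseudogenes without such a copy, 54 (17.8%) were in PTC only and 75 (24.8%) in control only. A −log10 FDR of 5 or more was reached by 6 of the 12 ribosomal protein copies in PTC only and 0 of the 4 in control only. The same held for 18 of 55 and 39 of 107 copies of other genes, and for 22 of 54 and 15 of 75 pseudogenes without a copy.

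Near-identical copies were frequent. A peak was given this label when at least 80% of its sequence matched, at 95% identity or more and on the same strand, the longest transcript of a protein-coding gene at another locus. That held for 766 of 2602 control peaks without a symbol (29.4%, 27.7% to 31.2%) and 700 of 2221 PTC peaks (31.5%, 29.6% to 33.5%), against 1.16% and 1.48% of the peaks with a symbol. In processed pseudogenes the share was 65.4% (721 peaks) and 66.0% (661 peaks), with a median identity of 98.4% and 98.6%. Over the matched part 94 of the control and 105 of the PTC pseudogene peaks were identical to the source. The pseudogenes concerned numbered 575 in control and 537 in PTC and matched 519 and 488 source genes. Most source genes were matched by 1 pseudogene, and Smarca5, which encodes an ISWI chromatin-remodelling ATPase, by 6 in control and 4 in PTC. Odc1, the ornithine decarboxylase gene of polyamine synthesis, was matched by 5 and 4, and Npm1, which encodes the nucleolar protein nucleophosmin, by 4 in each list.

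The source gene of a pseudogene peak did not always carry a peak of its own. Of the 721 control peaks with a copy, 241 (33.4%) matched a place where the source gene was listed with a peak, 349 matched a gene with a peak elsewhere and 131 (18.2%) a gene with no peak in that list. Of the 661 PTC peaks, the counts were 221 (33.4%), 311 and 129 (19.5%). Npm1 itself had 0 peaks in control and 1 in PTC while 4 of its pseudogenes were listed in each. How reads that fit several places were handled is not given in the sources used here, so a peak on a copy and a peak on its source gene cannot be told apart from these lists. Without peaks that had a near-identical copy, 52.7% of the control and 64.8% of the PTC peaks without a symbol were overlapped. Leaving the same peaks out of the whole lists gave 59.7% and 78.6%. The control share, close to that of the whole list with these peaks included, was thus below it without them. Both lists held 793 of the remaining genes without a symbol (50.5%, beside 79.1% of all remaining genes).

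**Figure D4:**
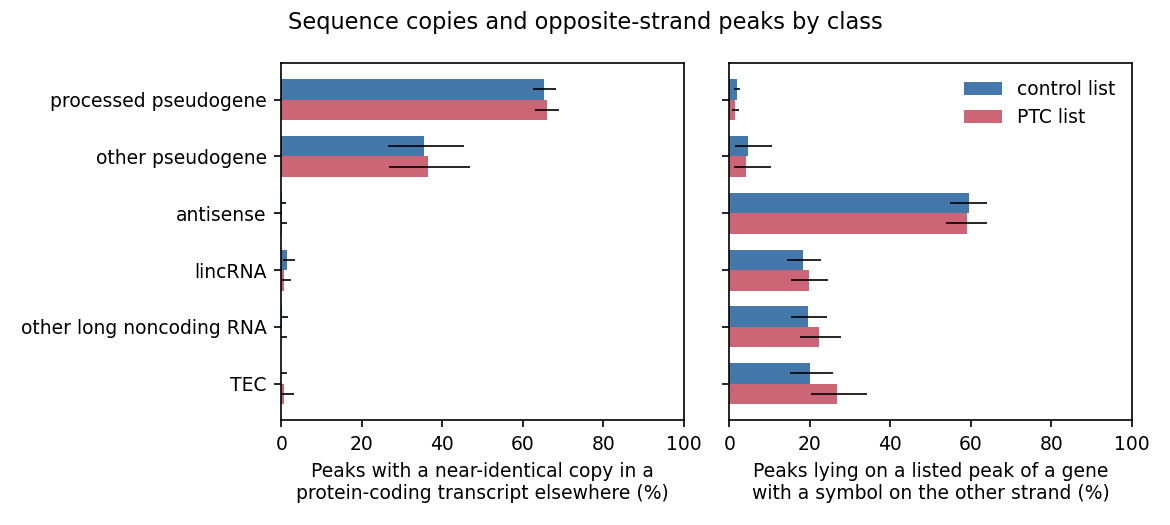
Left, share of peaks (x axis, percent) with a near-identical copy in a protein-coding transcript elsewhere; right, share lying on a listed peak of a gene with a symbol on the other strand, by GENCODE class (y axis) for the control (blue) and PTC lists (red). Lines are exact 95% intervals; processed pseudogenes stand out on the left (65.4% and 66.0%) and antisense genes on the right (59.5% and 59.0%).

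The position against protein-coding genes gave a second kind of shared sequence. Of the control peaks 525 (20.2%) and of the PTC peaks 444 (20%) lay on an exon of a protein-coding gene on the opposite strand. In antisense genes these shares were 65.4% and 65.1%. A further 68 and 61 peaks lay on a same-strand exon, 306 (11.8%) and 268 (12.1%) in a same-strand intron, 272 and 197 in an opposite-strand intron, and 50 and 52 within 5 kb downstream of a gene on the same strand. The remaining 1381 (53.1%) and 1199 (54.0%) had none of these positions. Of the peaks on an opposite-strand exon, 471 of 525 (89.7%) in control and 396 of 444 (89.2%) in PTC lay on a listed peak of a gene with a symbol on that other strand. Over all peaks without a symbol this was the case for 477 (18.3%) and 405 (18.2%).

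The peaks of such a pair resembled each other. A median of 95.6% (control) and 96.2% (PTC) of the shorter peak was shared, and the 2 fold enrichments were within 1.2 times of each other in 286 of 477 and 252 of 405 pairs. The peak without a symbol was the narrower one in 70.6% and 68.9%, with median widths of 240.0 against 360.0 nt in control and 241 against 360.0 nt in PTC. Its median −log10 FDR was 5.95 against 8.32 in control and 6.37 against 8.76 in PTC. Whether the libraries kept the strand of the RNA is not given in the sources used here, so an antisense peak and the peak of the gene it faces cannot be told apart. On the same strand, 55 control and 52 PTC peaks shared bases with a peak of a gene with a symbol.

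The midpoints of the peaks lay near the middle of the transcripts. The median position, from 0 at the 5′ end to 1 at the 3′ end, was 0.492 in control and 0.50 in PTC for genes without a symbol and 0.546 and 0.559 for genes with one. In antisense genes it was 0.429 in both lists. Among transcripts of more than 1 exon, 63.9% of control and 63.4% of PTC midpoints without a symbol lay in the last exon, which held a mean of 61.1% and 60.3% of the transcript length. In genes with a symbol 64.6% and 69.8% lay in the last exon, with 53.2% and 54.1% of the length. The excess over the length share was thus smaller in the genes without a symbol.

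The GGACT sequence was searched on the transcript strand in the transcript within 50 nt of the midpoint on either side. It occurred in 281 of the 2597 windows of the control list (10.8%; interval 9.65% to 12.1%) and in 223 of the 2215 windows of the PTC list (10.1%; interval 8.85% to 11.4%). In genes with a symbol the shares were 11.6% and 13.2%, which lies inside the control interval and above the PTC one. Other long noncoding RNA genes had the highest share of the larger classes (15.3% and 13.4%), and processed pseudogenes had 9.71% and 8.49%. The wider consensus DRACH, which is any base but C, a purine, A, C and any base but G, and so includes GGACT, was in 86.4% and 89.1% of windows without and 87.1% and 88.6% of windows with a symbol. These are matches of letters and not mapped sites, and no share for windows outside peaks is given here to compare them with.

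Peaks without a symbol were found on all autosomes and the X chromosome, with 1 peak per list on the Y chromosome and 0 on the mitochondrial genome. Chromosome 7 held the most (217 in control, 176 in PTC), followed by chromosome 1 (210 and 167). As a share of all peaks on a chromosome they were most frequent on X (115 of 863, 13.3%, in control and 96 of 701, 13.7%, in PTC), then on chromosome 3 (11.4% and 12.8%). They were least frequent on chromosome 18 (5.17% and 5.45%) and on chromosome 11 (6.07% and 6.70%), leaving aside the Y chromosome with 17 peaks in all in each list. The plus strand held 48.4% of the control and 48.5% of the PTC peaks.

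**Figure D5:**
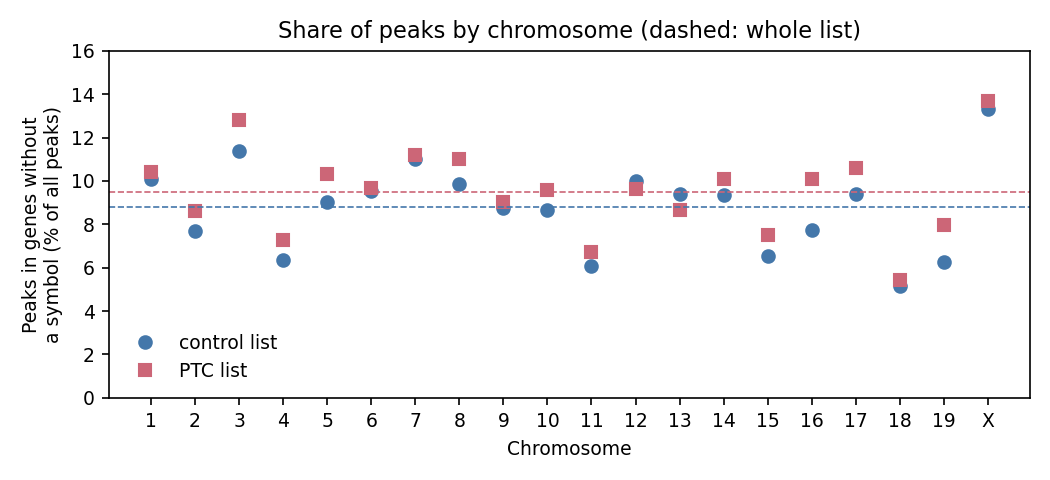
Share of all peaks on a chromosome (y axis, percent) that lay in genes without a symbol, for chromosomes 1 to 19 and X (x axis), in the control list (blue circles) and the PTC list (red squares). Dashed lines give the share in the whole list, 8.79% and 9.50%; X is highest (13.3% and 13.7%) and chromosome 18 lowest (5.17% and 5.45%) in both.

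The samples were checked against their label through the presence of peaks in marker genes. All 9 T cell markers, among them Cd3e and Lck, had a peak in both lists. Peaks were also listed for 3 of 4 B cell markers and 3 of 4 myeloid markers in both lists, and for 0 (control) and 2 (PTC) of 3 erythroid markers. The part of other cells in the peaks without a symbol was not tested. The second run of lines went through the chromosomes again, with 556 control and 432 PTC lines, of which 144 and 121 were peaks without a symbol. Leaving them out left the shares overlapped at 59.4% and 71.5%.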

How the data were processed

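RNA of 8 samples of mouse primary T cells (2 immunoprecipitates and 2 inputs per condition) had been sequenced, and the authors deposited 1 peak list per condition. Per the file headers, each peak has a p-value, scores that are log10 of the p-value and of the FDR, and a fold enrichment (a linear ratio), all deposited by the authors. They served only to rank, filter and describe peaks of the same list. The highest FDR was 4.27% in control and 4.68% in PTC. The submitters' processing notes name BWA 0.7.12, MACS2 2.1.0 and the build GRCm39 without giving their role, but the coordinates fitted GENCODE M21 genes on GRCm38 (99.9% of control and 99.8% of PTC peaks inside their own gene) and are read as GRCm38, counted from 1. The caller, its threshold, the treatment of strand and of reads with several matches, and any pooling of samples were not given in the sources used here. Read depth is unknown.

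Names and classes came from GENCODE M21. Exon blocks were compared with bedtools 2.31.1 (at least 1 bp, same strand). Shares carry exact Clopper-Pearson 95% intervals (scipy 1.17.1). Peak sequences came from GENCODE transcripts and were compared with the longest transcript of each protein-coding gene by BLAST+ 2.17.0 (megablast, E-value at most 1e-10). Motif windows were taken along the transcript and not the genome. With 1 list per condition no test was run. Genes were named by rule: the 8 strongest in both lists, the 6 strongest in each list only, and per list the 3 genes with the most peaks, the 3 peaks with the most blocks and the 3 widest. Sequences are a selection from the named peaks that hold GGACT, with the match of Gm13456. The members, lists and rules were chosen with earlier results of these data known. On simulated lists of 2000 peaks, 1025 of 1025 overlapping peaks were found with 0 false ones.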

Additional observations from a re-analysis of the deposited data

How the results depend on the processing

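Of 47 recomputed values of the 2 overlap shares and 3 gene counts, 27 stayed within the counting interval or within 1.5 times the count, and 20 did not. Those that stayed include the 2 shares and 3 counts recomputed without mitochondrial and unplaced peaks. These could not move, since 0 peaks without a symbol lay there. The shares overlapped (control, then PTC) were 56.8% and 68.3% when 50% of the shorter peak had to be shared, 46.3% and 54.3% when 50% of each had to be, and 44.1% and 51.6% when midpoints had to be 100 bp apart at most. With a −log10 FDR of 5 or more in both lists they were 73.4% and 77.6%, beside 70.8% and 83.0% of all peaks. A peak of that strength was listed only in control for 209 genes (17.3%, beside 10.6% of all genes) and only in PTC for 198 (16.4%, beside 9.86%). In both lists it was present for 803 (66.4%, beside 79.5%). Of the 209 and 198 genes, 89 and 83 had no peak of any strength in the other list. At a fold of 4 or more the shares overlapped were 37.1% and 48.5%, beside 48.6% and 61.2% of all peaks. In both lists were 494 genes (35.6%, beside 59.4% of all genes). At equal list length the shares overlapped were 71.1% and 64.4%, beside 69.2% and 73.1%, with 275 genes in control only (14.5%, beside 7.53%). Without near-identical copies they were 52.7% and 64.8%, beside 59.7% and 78.6% of all peaks, with 793 genes in both (50.5%, beside 79.1%). This alternative, like that without the second run of lines, was chosen after seeing the data. Ignoring strand, using whole spans, using the other list's peaks without a symbol only, or keeping only clone and Gm names moved neither share beyond its interval. GGACT was in 27.9% of control and 28.0% of PTC peaks when the whole peak was searched, beside 34.9% and 38.3% of peaks with a symbol. Per 1000 nt of peak there were 1.14 and 1.16 GGACT without, and 1.24 and 1.34 with a symbol. At a −log10 FDR of 5 or more the median widths were 359 and 328 nt, and 14.2% and 14.3% of peaks had more than 1 block. Of the 18 recomputed values of width, blocks, GGACT and copies, 7 stayed within their interval and 11 did not, the PTC GGACT share at a fold of 4 or more (12.3%) among them. The copy share of processed pseudogene peaks was 74.4% and 74.7% at 90% identity and 24.6% and 27.8% at 99%, also chosen later. No paired analysis was possible because the lists hold no values per sample. No replicate could be left out for the same reason. Depth limits cannot be given without counts.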
